A study of Mus musculus with 44 samples.

Results

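The genes described here make up the cholesterol synthesis pathway and its control by the transcription factor SREBP2. They are 26 of the 55416 genes counted in each library and were chosen by name: 5 of the steps up to the activated isoprene unit, 3 of isoprenoid synthesis, 3 of squalene and lanosterol synthesis, 9 of the steps from lanosterol to cholesterol, 4 of SREBP control and 2 of sterol transport. All 26 symbols matched 1 count entry each. Whole homogenised brain, liver and small intestine of C57BL/6J mice about 2 months old were measured. Animals given Mn50, manganese chloride tetrahydrate at about 50 mg/kg each day per the study's design text, were set against animals given vehicle. The study asked, per the same text, which expression changes with manganese might bear on movement. There were 8 Mn50 animals (3 female, 5 male) and 7 vehicle animals (3 female, 4 male), with 1 library of each tissue per animal except that Mn50 animal 2601 has no small intestine library here. Animals are named by the numbers in their labels, which are taken here as a first run (Mn50 2575 to 2578 and vehicle 2572 to 2574) and a second run (Mn50 2600 to 2603 and vehicle 2627 to 2630). In both runs the numbers form separate blocks, 1 all Mn50 and 1 all vehicle, so that treatment and number block cannot be told apart. The blocks of the first run follow on each other, and those of the second run lie apart.

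Cholesterol is built in the cytosol and endoplasmic reticulum from acetyl-CoA by way of mevalonate, isoprenoid diphosphates, squalene and lanosterol. SREBP2, the product of Srebf2, is held in the endoplasmic reticulum by Scap and the Insig proteins while sterol is plentiful. When sterol falls, Scap escorts it to the Golgi, where it is cut, and the released factor enters the nucleus and raises transcription of nearly every enzyme of the pathway together with Insig1. Liver makes cholesterol for lipoproteins and bile acids, the small intestine takes it up through Npc1l1, and the brain makes its own, largely for myelin, because lipoproteins do not cross the blood-brain barrier.

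The promoters of these genes were searched for short motifs that SREBP2 and its partners use. The promoters of Hmgcs1 and Idi1, the members called with Mn50, and of Insig1, the feedback regulator, are shown as the 250 bases before the start site. Sequences are from RefSeq on GRCm38.p6, at chr13:119690101-119690350 on the plus strand, chr13:8885356-8885605 on the plus strand and chr5:28071162-28071411 on the plus strand. Capitals mark matches to the sterol regulatory element TCACNCCAC and to the NF-Y box CCAAT on either strand.
Hmgcs1: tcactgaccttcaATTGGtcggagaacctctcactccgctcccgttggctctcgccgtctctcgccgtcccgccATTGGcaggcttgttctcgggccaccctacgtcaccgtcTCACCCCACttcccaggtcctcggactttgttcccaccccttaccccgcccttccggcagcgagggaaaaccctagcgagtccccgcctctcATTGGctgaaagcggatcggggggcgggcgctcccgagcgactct
Idi1: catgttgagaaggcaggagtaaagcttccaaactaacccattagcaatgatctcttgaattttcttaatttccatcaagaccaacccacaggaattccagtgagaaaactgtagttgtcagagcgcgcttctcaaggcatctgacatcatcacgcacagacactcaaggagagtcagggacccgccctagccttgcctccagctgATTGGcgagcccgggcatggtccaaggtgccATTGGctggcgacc
Insig1: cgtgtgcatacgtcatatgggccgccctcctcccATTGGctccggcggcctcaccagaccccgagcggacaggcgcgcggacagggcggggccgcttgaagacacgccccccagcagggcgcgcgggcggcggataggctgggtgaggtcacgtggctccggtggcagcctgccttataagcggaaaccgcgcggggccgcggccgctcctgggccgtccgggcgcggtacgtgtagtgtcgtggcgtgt

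Of the 26 members, 22 had a promoter window in the RefSeq table (250 bases before to 50 after the start). The NF-Y box CCAAT was found on either strand in 20 of these 22 (90.9%), against 41.1% of 27025 genes. The Sp1 box GGGCGG was found in 19 of 22 (86.4%), against 38.2% of genes. The E box CACGTG was found in 5 of 22 (22.7%), against 8.1% of genes. The element TCACNCCAC was found only in Hmgcs1 among the 22 (4.5%), starting 137 bases before the start site, against 1.4% of genes. No match of one motif overlapped another in the 3 promoters printed above. A match describes the letters in the window and not a bound site.

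The libraries held 1796385 to 3798810 reads assigned to genes. The labelled tissues fitted their markers: 12 hepatocyte genes summed to 71000 to 81267 CPM (reads per 1000000 gene reads, with TMM-scaled totals) in Mn50 livers and 61956 to 77364 CPM in vehicle livers, and 10 enterocyte genes to 18253 to 27426 CPM in Mn50 and 15884 to 21243 CPM in vehicle intestines. The brain libraries were less uniform. By markers of liver and intestine, 7 of the 8 Mn50 brains held reads of another tissue. The estimated liver share was 3.15% in animal 2577 and 2.08% to 2.19% in 2578, 2601, 2602 and 2603, and the intestine share was 5.14% in 2576 and 2.64% in 2600. The 5 with liver reads were the 5 Mn50 males, and the other 3 were the Mn50 females. Mn50 brain 2575 was at 0 for both, and no vehicle brain was above 0.119%. Livers carried intestine shares of 0.0207% to 1.498% in Mn50 and 0.372% to 5.05% in vehicle animals, the highest in vehicle 2630. Brain shares were 0.156% to 2.11% in Mn50 livers (median 0.192%) and 0.545% to 2.75% in vehicle livers (median 0.645%), and 0.664% to 2.55% in Mn50 intestines and 0.461% to 2.26% in vehicle intestines. Results below are given with these values where they touch.

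In brain, Hmgcs1, the cytosolic synthase that commits acetyl units to the pathway, was higher with Mn50 and was the only member called. It reached 149, 204, 240, 241, 191, 211, 256 and 215 CPM in Mn50 brains 2575, 2576, 2577, 2578, 2600, 2601, 2602 and 2603, against 161, 160, 161, 156, 166, 152 and 161 CPM in vehicle brains 2572, 2573, 2574, 2627, 2628, 2629 and 2630. Thus 7 of the 8 Mn50 brains were above every vehicle brain and 1, animal 2575, was below them all. The means were 213 ± 33.8 CPM with Mn50 and 160 ± 4.45 CPM with vehicle (SD, n = 8 and 7). By edgeR's quasi-likelihood test the log2 change was 0.40 ± 0.08 (SE, adjusted p = 0.0274). In bulk tissue a change in the number of cells of a type and a change in RNA per cell cannot be told apart.

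The 1 library that stood below, 2575, was also the 1 Mn50 brain with no estimated liver or intestine reads. The reads that the shares predict for Hmgcs1 came to 17.9 CPM at most, in animal 2577, and to 9.8 CPM on average over the Mn50 brains. With those reads subtracted the log2 change was 0.38 (adjusted p = 0.177). With the shares as covariates it was 0.03, and with only the libraries under 1%, which leaves 2575 as the single Mn50 brain, it was -0.09. When each animal was left out in turn, the log2 change stayed between 0.37 and 0.46, and the call was kept in 5 of 15 fits, those without 2572, 2575, 2600, 2628 and 2629, with adjusted p from 0.000874 to 0.107 over all 15.

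**Figure D1:**
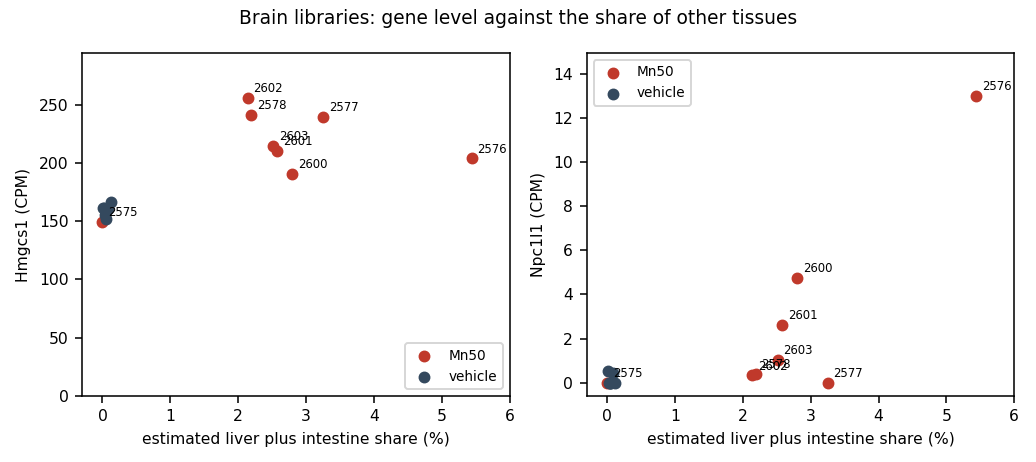
Level of Hmgcs1 (left) and Npc1l1 (right) in CPM, on the vertical axis, against the summed estimated share of liver and small intestine reads in percent, for each brain library, with Mn50 points in red and labelled by animal and vehicle points in dark blue. Mn50 brain 2575 lies with the vehicle brains on both axes, and the highest Npc1l1 value, 13.0 CPM, is in Mn50 brain 2576.

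Of the other members tested in brain, none passed the adjusted threshold. In all 23 were tested, 1 was called higher and 0 lower; over all 12872 genes tested 0.559% were called higher and 0.0155% lower. DESeq2 called 2 members higher, Hmgcs1 and Tm7sf2, as it did 0.847% of genes. The point estimates were mostly above 0: 22 of 23, with a median log2 change of 0.21 against -0.007 over all genes tested. An unadjusted p below 0.05 was reached by 12 of the 23 (52.2%), all in the higher direction, against 8.25% of all genes in either direction. With predicted reads of other tissues subtracted, 19 of 23 were positive (median 0.15), 10 with an unadjusted p below 0.05 (edgeR). With the shares as covariates, 20 were positive (median 0.09), 1 with an unadjusted p below 0.05. Over all genes the medians of these fits were -0.004 and 0.016. What part of the members' estimates these reads make up was not tested.

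By role, all 5 members that supply or use mevalonate had positive estimates. Mvk, which phosphorylates mevalonate, averaged 29.3 ± 6.22 CPM with Mn50 and 22.6 ± 2.45 CPM with vehicle (log2 0.36 ± 0.13, adjusted p = 0.383), and Pmvk, the next kinase, gave 0.03 ± 0.08. Acat2, the cytosolic thiolase that makes acetoacetyl-CoA, gave 0.27 ± 0.08 (adjusted p = 0.270). In the squalene steps Lss, which closes squalene epoxide into lanosterol, averaged 33.0 ± 4.16 CPM with Mn50 and 25.2 ± 5.24 CPM with vehicle (log2 0.39, adjusted p = 0.271). Sqle, the rate-limiting epoxidase, was 65.0 to 90.8 CPM in Mn50 brains and 65.6 to 76.8 CPM in vehicle brains (log2 0.14 ± 0.07, adjusted p = 0.665), so that the ranges overlapped.

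Among the enzymes that turn lanosterol into cholesterol, all 9 estimates were positive. The largest was Tm7sf2, a sterol reductase, with 19.6, 21.2, 34.9, 24.4, 20.6, 28.0, 27.2 and 29.3 CPM in Mn50 brains 2575 to 2603 in the order above, against 17.5, 21.0, 24.8, 20.8, 11.5, 13.9 and 15.8 CPM in vehicle brains. It had the second smallest p of the members (log2 0.48 ± 0.11, adjusted p = 0.0736), and 4 of 8 Mn50 brains were above every vehicle brain. The shares predict up to 7.11 CPM of Tm7sf2 in a Mn50 brain. The other 7 enzymes, Cyp51, Msmo1, Nsdhl, Hsd17b7, Ebp, Sc5d and Dhcr7, gave 0.16 (Ebp) to 0.33 (Nsdhl), with adjusted p from 0.216 upward. Lbr, the nuclear envelope protein that carries the same reductase activity, gave 0.002 ± 0.125. For the 7 enzymes other than Tm7sf2 and Lbr, the predicted reads averaged 1.92 (Dhcr7) to 13.6 CPM (Sc5d) over the Mn50 brains. Sc5d averaged 115 CPM with Mn50 and 94.5 CPM with vehicle. For Ebp 8.52 CPM were predicted, where Ebp averaged 38.3 CPM with Mn50 and 33.3 CPM with vehicle. The part of these reads in the estimates was not tested.

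The regulators differed from each other in size. Srebf2 itself was level, at 176 ± 11.5 CPM with Mn50 and 174 ± 11.8 CPM with vehicle (log2 0.017 ± 0.062, adjusted p = 0.989). Insig1, an SREBP2 target whose protein retains Scap, was 61.1, 68.8, 74.8 and 73.1 CPM in Mn50 brains 2575 to 2578 and 47.9, 45.5, 61.4 and 51.8 CPM in Mn50 brains 2600 to 2603, against 47.5, 36.3 and 51.2 CPM in vehicle brains 2572 to 2574 and 53.0, 42.7, 51.7 and 51.8 CPM in vehicle brains 2627 to 2630. The first run of Mn50 brains lay above all vehicle brains and the second run overlapped them. Over both runs the log2 change was 0.34 ± 0.12 (adjusted p = 0.377).

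That difference between the runs was tested as a term for run by treatment, chosen after seeing the data. It was called for Insig1 (-0.63 ± 0.18, adjusted p = 0.0265), Acat2 (-0.49 ± 0.13, adjusted p = 0.0201) and Cyp51, the lanosterol demethylase (-0.44 ± 0.14, adjusted p = 0.0443), where a negative value means a smaller change in the second run. Leaving out 1 animal at a time kept the call for Acat2 in 13 of 15 fits (lost without 2574 or 2600), for Insig1 in 11 (lost without 2573, 2600, 2627 or 2629) and for Cyp51 in 6. Over all genes 4.45% were called lower by the same term. Hmgcs1 had the same change in both runs (term 0.005 ± 0.161), with 218 CPM in Mn50 and 159 CPM in vehicle brains of the second run and 209 CPM in Mn50 and 161 CPM in vehicle brains of the first. Within the first run 0 members were called, though all 23 estimates were positive (median 0.33, edgeR), where 0.452% of 12831 genes were called higher and 1.09% lower. An unadjusted p below 0.05 was reached there by 12 members, against 2214 of the 12831 genes in either direction. Within the second run 3 were called higher, Hmgcs1, Lss and Tm7sf2, with a median of 0.05, where 7.38% of 12914 genes were called higher.

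Npc1l1, the sterol importer of the intestinal brush border, was too low in brain to test but was not evenly absent. It had 0, 27, 0, 1, 18, 7, 1 and 3 reads in Mn50 brains 2575 to 2603, against 0, 0, 1, 0, 0, 0 and 1 reads in vehicle brains 2572 to 2630. The reads were mostly in 2576 and 2600, the Mn50 brains with the largest intestine shares, at 13.0 and 4.76 CPM, where the shares predict 12.3 and 6.33 CPM. Npc1l1 itself meets the rule for the 195 markers that set the intestine share in brain. Apoa4, an enterocyte and liver apolipoprotein that is no member, rose alongside in Mn50 brains (69.5 ± 94.8 CPM with Mn50, 1.58 ± 1.40 CPM with vehicle, adjusted p = 0.00190). Of 9 tested hepatocyte markers 7 were called higher in Mn50 brains, their 12 genes summing to 78.0 to 5564 CPM against 49.1 to 575 CPM. The 8 oligodendrocyte markers summed to 7763 to 10189 CPM in Mn50 and 7386 to 8575 CPM in vehicle brains, with 8 positive estimates (median 0.17) and 0 called. Their part in the members' values was not tested.

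**Figure D2:**
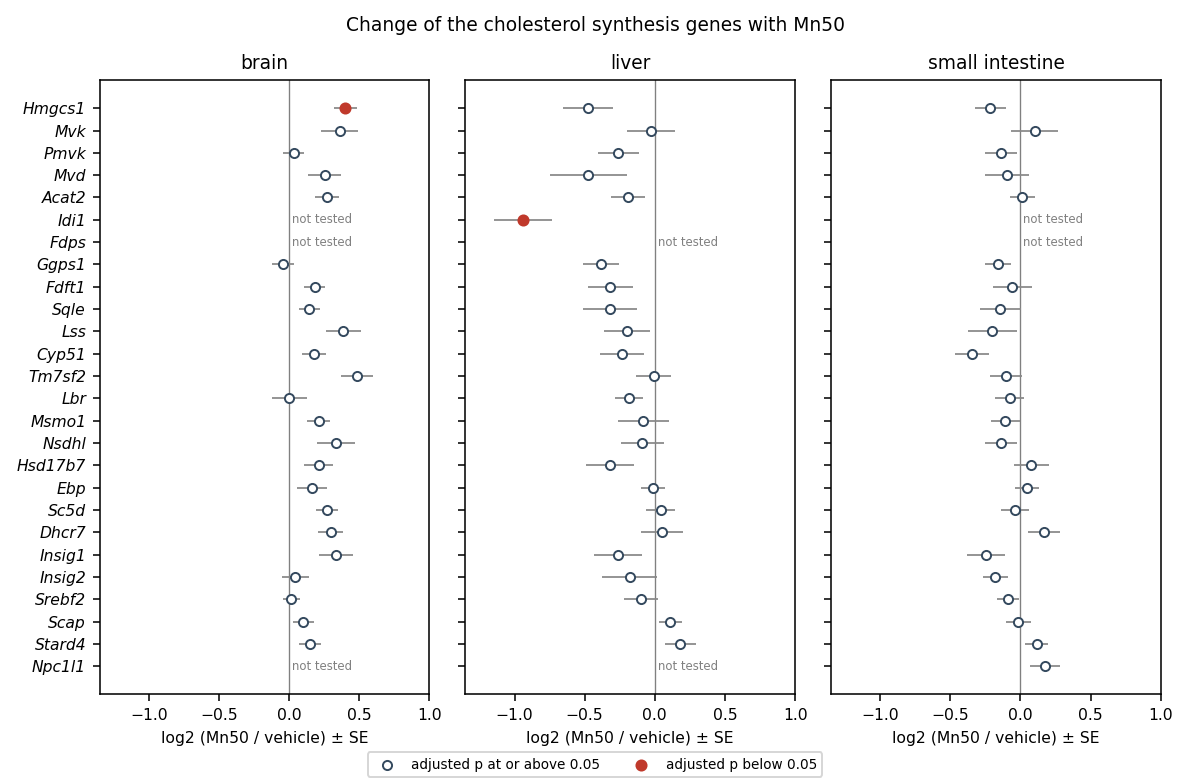
Log2 change of each of the 26 genes with Mn50 relative to vehicle, with its standard error, in brain, liver and small intestine; filled red points have an adjusted p below 0.05. Hmgcs1 in brain (0.40) and Idi1 in liver (-0.94) are the called points, and 22 of 23 estimates in brain are positive against 4 of 24 in liver and 7 of 24 in small intestine.

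In liver the sign was mostly the other way, and the only called member was Idi1, which interconverts the isoprenoid building blocks isopentenyl and dimethylallyl diphosphate. Idi1 was 4.36, 8.01, 8.12, 6.41, 5.26, 7.59, 7.38 and 4.79 CPM in Mn50 livers 2575 to 2603, against 12.1, 16.0, 19.8, 12.4, 6.09, 11.1 and 9.64 CPM in vehicle livers 2572 to 2630. Vehicle liver 2628 overlapped the Mn50 livers, and the other 6 vehicle livers were above every Mn50 liver. The means were 6.49 ± 1.51 CPM with Mn50 and 12.4 ± 4.41 CPM with vehicle (SD, n = 8 and 7; log2 -0.94 ± 0.21, adjusted p = 0.0398). These values rest on few reads, 21.3 per library on average and 10 at the lowest. Left out in turn, 6 of 15 animals (2572, 2576, 2600, 2602, 2628 and 2630) kept the call and the other 9 lost it, with a log2 change of -1.05 to -0.81 and adjusted p of 0.0231 to 0.0828. Without sex as a covariate 0 members were called.

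Of the 24 members tested in liver, 1 was called lower and 0 higher; over all 10536 genes 0.683% were called lower and 0.484% higher. DESeq2 also called Idi1 lower and no other member, with 1.48% of genes lower. Estimates were positive for 4 of 24, with a median log2 change of -0.19 against -0.018 over all genes. An unadjusted p below 0.05 was reached by 3 members, all lower (12.5%, against 18.0% of all genes in either direction). Besides Idi1 these were Hmgcs1 and Ggps1, the synthase of geranylgeranyl diphosphate for protein prenylation, at 14.7 ± 2.05 CPM with Mn50 and 19.1 ± 3.06 CPM with vehicle (log2 -0.38 ± 0.13, adjusted p = 0.126).

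Hmgcs1 in liver was 329, 473, 331, 573, 319, 429, 354 and 478 CPM in Mn50 livers 2575 to 2603, against 653, 682, 868, 540, 269, 499 and 467 CPM in vehicle livers 2572 to 2630. The 3 highest livers were the vehicle animals of the first run and the lowest was vehicle 2628, so the groups overlapped (log2 -0.47 ± 0.18, adjusted p = 0.172). Sqle averaged 125 ± 26.9 CPM with Mn50 and 157 ± 58.2 CPM with vehicle (log2 -0.32, adjusted p = 0.395), and Insig1 208 ± 43.6 CPM with Mn50 and 249 ± 71.8 CPM with vehicle (log2 -0.26, adjusted p = 0.435). Srebf2 gave -0.10 ± 0.12 and Scap 0.11 ± 0.08. The late enzymes Dhcr7, which reduces dehydrocholesterol to cholesterol, and Sc5d, the desaturase before it, gave 0.05 ± 0.15 and 0.04 ± 0.10.

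In liver few markers passed the threshold. The 10 enterocyte genes summed to 256 to 647 CPM in Mn50 livers and 356 to 1502 CPM in vehicle livers, and 1 of the 9 tested, Rbp2, was called lower (32.2 ± 21.3 CPM with Mn50, 261 ± 176 CPM with vehicle, adjusted p = 0.0141). Of 12 hepatocyte markers 1 was called, Tdo2, higher at 1735 ± 486 CPM with Mn50 and 1143 ± 256 CPM with vehicle (adjusted p = 0.0424). The 6 macrophage markers had 6 negative estimates (median -0.33) with 0 called. With predicted reads of other tissues subtracted, or with shares as covariates, Idi1 was still the member called in liver, and without livers over 1.5% of another tissue 0 members were called (edgeR, 3 with an unadjusted p below 0.05).

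The liver estimates differed by run. Within the first run, Hmgcs1, Idi1, Fdft1 (squalene synthase), Sqle and Insig1 were called lower with Mn50 and 22 of 24 estimates were negative (median -0.32), where 1.2% of 10522 genes were called lower. Within the second run 0 of 24 were called and 16 were positive (median 0.05, edgeR), where 0.028% of 10733 genes were called lower and 0.00932% higher. An unadjusted p below 0.05 was reached there by 2 members, against 1346 of the 10733 genes. The run by treatment term was positive for 23 of 24 members, 6 with an unadjusted p below 0.05, but 0 were called, as were 0% of the 10536 genes (edgeR). Over all genes 48.5% were positive, and 7.82% had an unadjusted p below 0.05 in either direction.

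The vehicle livers also differed by run. Vehicle animals 2627 to 2630 had lower estimates than vehicle animals 2572 to 2574 for 23 of the 24 members, of which 16 had an unadjusted p below 0.05. Over all genes 49.4% of estimates were higher, and 7.38% were lower with an unadjusted p below 0.05. Called were Mvd, the decarboxylase that makes isopentenyl diphosphate (44.9 CPM in the second run and 97.0 CPM in the first, log2 -1.09, adjusted p = 0.0464), Fdft1 (101 and 171 CPM, -0.74, adjusted p = 0.0136) and Cyp51 (273 and 440 CPM, -0.66, adjusted p = 0.0393). By the same contrast 0.626% of all genes were called lower. Hmgcs1 averaged 395 CPM in Mn50 and 444 CPM in vehicle livers of the second run, and 426 CPM in Mn50 and 734 CPM in vehicle livers of the first. The calls depended on single animals: over the 15 fits that leave 1 out, Fdft1 was kept in 13 (lost without 2572 or 2574), Cyp51 in 10 (lost without 2572, 2574, 2576, 2628 or 2630) and Mvd in 6, and the highest adjusted p were 0.0616, 0.246 and 0.186. The labels say nothing of the runs beyond the animal numbers.

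**Figure D3:**
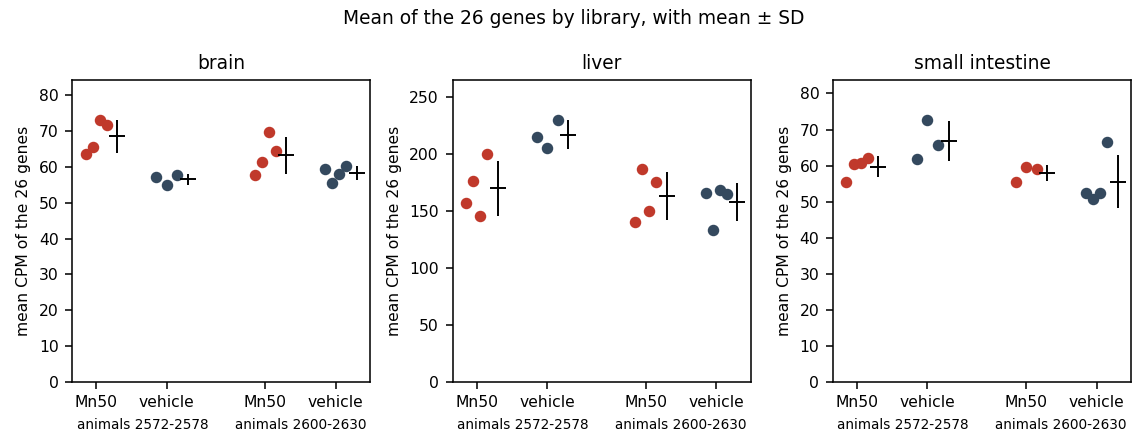
Mean CPM of the 26 genes in each library, by tissue, with Mn50 (red) left of vehicle (dark blue) for animals numbered 2572 to 2578 and then for those numbered 2600 to 2630; black marks are mean ± SD. In liver the 3 vehicle animals of the first run are at 205 to 230 CPM, while the other 3 sets of livers average 158 to 170 CPM.

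Averaged over all 26 genes, which weights the abundant ones, the mean in liver was 170 ± 23.9 CPM in Mn50 and 217 ± 12.7 CPM in vehicle animals of the first run, and 163 ± 21.4 CPM in Mn50 and 158 ± 16.7 CPM in vehicle animals of the second. In brain it was 68.6 ± 4.66 CPM in Mn50 and 56.6 ± 1.49 CPM in vehicle animals of the first run, and 63.3 ± 5.15 CPM in Mn50 and 58.3 ± 2.07 CPM in vehicle animals of the second. In small intestine it was 59.7 ± 2.86 CPM in Mn50 and 66.8 ± 5.50 CPM in vehicle animals of the first run, and 58.0 ± 2.22 CPM in Mn50 and 55.6 ± 7.35 CPM in vehicle animals of the second. Among single livers, vehicle 2574 had the highest value of all 15 for 13 of the 24 tested members and vehicle 2628 the lowest for 10.

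In small intestine 0 of 24 tested members were called by edgeR, where 0.34% of 11770 genes were called higher and 0.119% lower, and 0 by DESeq2, where 1.21% of genes were called. An unadjusted p below 0.05 was reached by 1 member (4.17%, against 12.2% of all genes), and 7 of 24 estimates were positive (median -0.09, against -0.010 over all genes). That member was Cyp51, at 54.3, 47.8, 60.0, 53.5, 50.7, 48.0 and 63.1 CPM in Mn50 intestines 2575, 2576, 2577, 2578, 2600, 2602 and 2603, against 58.5, 98.3, 68.5, 59.5, 49.6, 53.5 and 101 CPM in vehicle intestines 2572 to 2630. The Mn50 values were close together while vehicle 2573 and 2630 stood well above the other vehicle animals (log2 -0.35 ± 0.12, adjusted p = 0.233).

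Insig2, the second Insig protein, which is not itself an SREBP2 target in the way Insig1 is, was 60.9, 64.1, 70.8, 65.7, 50.2, 76.3 and 81.9 CPM in the Mn50 intestines, against 81.2, 87.2, 84.4, 69.9, 70.4, 65.8 and 71.5 CPM in the vehicle intestines (log2 -0.18 ± 0.09, adjusted p = 0.426). Hmgcs1 was 84.0 to 103 CPM in Mn50 and 80.2 to 150.0 CPM in vehicle intestines (log2 -0.21 ± 0.11, adjusted p = 0.465). Both pairs of ranges overlapped, with the highest Hmgcs1 values in vehicle intestines 2573 and 2630, those highest for Cyp51. Sqle gave -0.14 ± 0.15, Insig1 -0.25 ± 0.14 and Srebf2 -0.09 ± 0.08.

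Npc1l1 was abundant here, at 224, 308, 296, 275, 295, 268 and 227 CPM in Mn50 intestines 2575 to 2603, against 287, 287, 265, 204, 197, 215 and 219 CPM in vehicle intestines 2572 to 2630. The means were 270.4 ± 33.5 CPM with Mn50 and 239 ± 39.3 CPM with vehicle (SD, n = 7 each; log2 0.18 ± 0.10, adjusted p = 0.541). The 4 lowest vehicle values were those of the second run. Vehicle animals 2627 to 2630 averaged 209 CPM and vehicle animals 2572 to 2574 averaged 280 CPM (log2 -0.42 ± 0.11, adjusted p = 0.0388; kept in 8 of 14 fits that leave out an animal, lost without 2572, 2573, 2574, 2627, 2628 or 2629), the only member called in that contrast, by which 1.71% of genes were called lower. Pancreatic acinar genes, which mark adjacent pancreas, summed to 0 to 64.1 CPM in Mn50 and 45.1 to 9365 CPM in vehicle intestines, and 10 enterocyte markers had 10 positive estimates (median 0.37) with 0 called. Among 6 macrophage markers C1qb was called lower, at 57.5 ± 9.62 CPM with Mn50 and 83.1 ± 10.8 CPM with vehicle (adjusted p = 0.0374). Their part in the members' values was not tested.

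**Figure D4:**
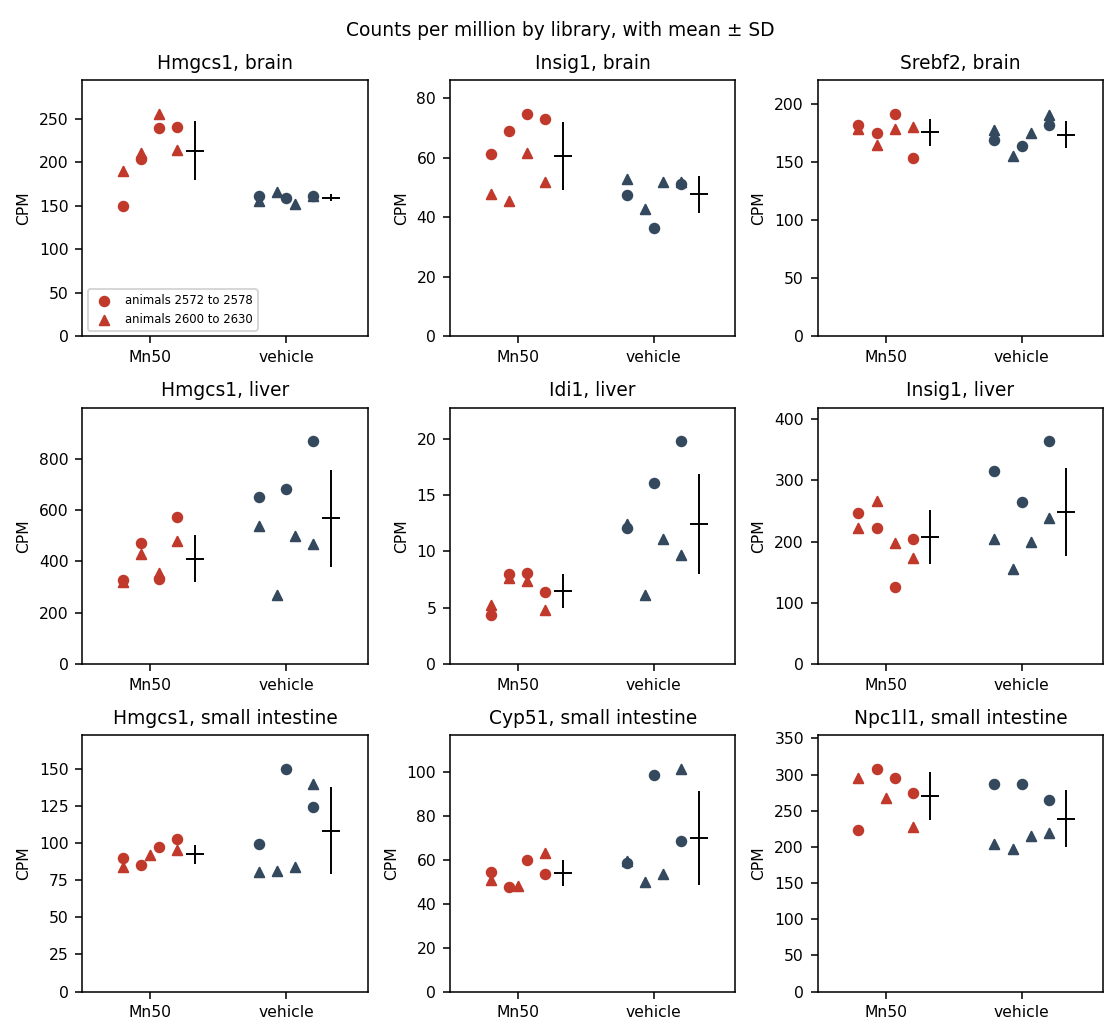
CPM of 3 genes in each tissue by library, with Mn50 (red) left of vehicle (dark blue), circles for animals numbered 2572 to 2578, triangles for those numbered 2600 to 2630, and black marks for mean ± SD. Of the 8 Mn50 brains, 7 are above all vehicle brains for Hmgcs1, and in liver the 3 vehicle circles are the highest points for Hmgcs1.

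Levels in vehicle animals differed by tissue for nearly all members, compared gene by gene in 1 fit of all 44 libraries in which 25 members were tested. Liver was above brain for 23 and below it for 2, where 44% of 14984 genes were called higher and 39.5% lower, with a median log2 difference of 2.51. Hmgcs1 averaged 568 CPM in vehicle liver and 160 CPM in vehicle brain (fitted log2 2.69 ± 0.16, adjusted p = 4.7e-19), and Ebp, a sterol isomerase, gave the largest called difference of the synthesis enzymes (4.65 ± 0.12, adjusted p = 2.21e-32). The 2 that were lower in liver were Ggps1 (-1.58 ± 0.10, adjusted p = 8.99e-19) and Srebf2 (-0.36 ± 0.10, adjusted p = 0.00146). The gene of the transcription factor, at 73.0 CPM in vehicle liver and 174 CPM in vehicle brain, was lower in the tissue where most of its target genes were higher. Fitted ratios were scaled over all 44 libraries and CPM within each tissue, so that ratios of the printed CPM differ from the fitted ones.

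Small intestine was below liver for 21 members and above it for 3, where 33.7% of genes were called lower and 34.3% higher; the median log2 difference was -2.55. The 3 were Npc1l1 (5.39 ± 0.31), Lbr (0.78 ± 0.11) and Ggps1 (0.53 ± 0.10), with adjusted p from 1.98e-19 to 1.34e-05, and Srebf2 was not called (-0.02 ± 0.10, adjusted p = 0.874). Between small intestine and brain the members were split, 8 higher, 8 lower and 9 not called, where 44.3% of genes were called higher and 40.3% lower (median -0.05). Stard4, a soluble carrier of sterol between membranes, was higher in intestine (1.71 ± 0.10) and Pmvk lower (-1.33 ± 0.14). For most members the order was therefore liver first, with small intestine and brain in either order, and for Npc1l1 it was small intestine, at 239 ± 39.3 CPM, then liver, at 4.31 ± 4.79 CPM, then brain, at 0.136 ± 0.235 CPM. The liver level of Npc1l1 followed the estimated intestine reads: it was 0.888 to 14.998 CPM in vehicle livers (median 2.87 CPM), where the intestine shares predict 0.891 to 12.1 CPM (median 2.89 CPM). Npc1l1 itself meets the rule for the 187 markers that set this share, so the match is not fully independent. Its place above brain therefore cannot be told apart from carried-over intestine reads.

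**Figure D5:**
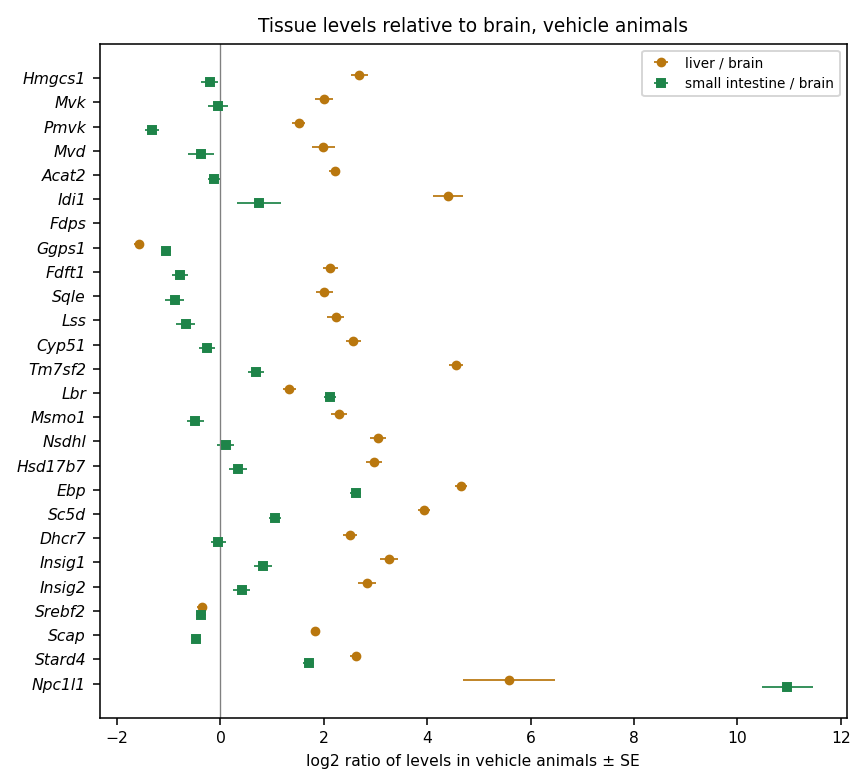
Log2 ratio of each gene's level in vehicle liver (circles) and vehicle small intestine (squares) to vehicle brain, with standard errors, from the fit of all 44 libraries; Fdps was not tested. Liver is above brain for 23 of the 25 tested genes, and Ggps1 and Srebf2 lie left of 0.

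The change with Mn50 in liver differed from that in brain for 4 members, all in the lower direction, by the tissue by treatment contrast, where 5.21% of genes were called lower and 0.561% higher. Hmgcs1 gave -0.90 ± 0.21 (adjusted p = 0.00399), from -0.47 in liver and 0.40 in brain when fitted alone, and was called in all 15 fits that leave out an animal. These fits keep the reads of other tissues that 7 of the 8 Mn50 brains carried. The predicted reads averaged 9.8 CPM of Hmgcs1 in Mn50 brains, where Hmgcs1 averaged 213 CPM, against 160 CPM in vehicle brains. With them subtracted, the brain change alone stayed slightly below 0.40. It was 0.03 with the shares as covariates, which were above 1% only in Mn50 brains. Without libraries over 1% it was -0.09, with 1 Mn50 brain left. What part of the change these reads make up was not tested. Idi1 gave -1.5 ± 0.45 (adjusted p = 0.0342; kept in 7 of 15, lost without 2573, 2574, 2575, 2578, 2600, 2602, 2603 or 2629), with 0 to 9 reads in a brain library. Acat2 gave -0.48 ± 0.15 (adjusted p = 0.0417; kept in 3 of 15, those without 2578, 2627 or 2628). With each animal as a replicate block, which pairs the tissues of an animal, Lss was called as well (-0.63, adjusted p = 0.0401). Estimates were negative for 24 of 25 members (median -0.44). For 14 members the unadjusted p was below 0.05 (edgeR). Of all 14984 genes, 2081 were lower and 553 higher at that level, so that genes at large leaned the same way.

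Npc1l1 was the fourth (fitted log2 difference -4.98, adjusted p = 0.00224) and was the only member called for small intestine against brain (-3.86, adjusted p = 0.0149; lost without 2572, 2576, 2628 or 2629), where 3.73% of genes were called lower and 0.1% higher. Both values include the few reads in Mn50 brains given above, and the first also the liver values, which averaged 2.11 ± 1.38 CPM with Mn50 and 4.31 ± 4.79 CPM with vehicle on 0 to 28 reads per library. With vehicle brains at 0 or 1 read, their size depends on the fit's prior count. All 25 estimates for small intestine against brain were negative (median -0.31). For 8 of them the unadjusted p was below 0.05 (edgeR), where 1604 of 14984 genes were lower and 205 higher at that level. The 3 contrasts share libraries, so that their signs are not separate evidence. For small intestine against liver 0 members were called by edgeR, where 0.0601% of genes were called higher and 0.0133% lower. An unadjusted p below 0.05 was reached by 1 member, Idi1 (1.08 ± 0.45, adjusted p = 0.403), against 1514 of 14984 genes.

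The change with Mn50 did not differ by sex beyond the threshold for any member. By edgeR 0 were called in brain, liver or small intestine, where 0.0622%, 0.038% and 0% of genes were called. An unadjusted p below 0.05 was reached by 2, 3 and 1 members, against 710 of 12872, 670 of 10536 and 324 of 11770 genes. The members of smallest p were Ebp in brain (females minus males, -0.59 ± 0.17, adjusted p = 0.480), Mvd in liver (1.28 ± 0.48, adjusted p = 0.694) and Mvd in small intestine (0.73 ± 0.28, adjusted p = 0.9998). Hmgcs1 in brain averaged 181 CPM in Mn50 and 160 CPM in vehicle females, and 232 CPM in Mn50 and 159 CPM in vehicle males (-0.36 ± 0.14, adjusted p = 0.877). The 5 Mn50 male brains carried liver shares of 2.08% to 3.15%, which with the intestine shares predict 11.8 to 17.9 CPM of Hmgcs1, and the 3 Mn50 female brains liver shares of 0% to 0.299%, with 0 to 7.27 CPM predicted. Their part in the difference was not tested. In vehicle livers 1 member was called between the sexes, Scap, the escort of SREBP2, which was higher in females: 185, 154 and 178 CPM in females 2572, 2628 and 2629, against 130, 134, 115 and 129 CPM in males 2573, 2574, 2627 and 2630. The groups did not overlap (log2 0.44 ± 0.11, adjusted p = 0.0236; lost without 2572, 2627 or 2629), where 2.54% of genes were called higher in females and 2.89% lower. Estimates for 18 of 24 members were lower in females, such as Mvd at 41.3 CPM in females and 86.6 CPM in males (log2 -1.09, adjusted p = 0.0835). Sex and run were not balanced here: female 2572 and males 2573 and 2574 are of the first run. Vehicle livers of that run had the higher estimates for all but 1 of the 24 members, with Mvd at 97.0 CPM against 44.9 CPM in the second. The sex fit had no term for run, and the part of run in these differences was not tested. In vehicle brain and intestine 0 members were called (edgeR), where 0.0388% and 0.068% of genes were called. An unadjusted p below 0.05 was reached by 1 and 8 members, against 343 of 12872 and 551 of 11770 genes. The smallest p belonged to Tm7sf2 in brain, at 14.3 CPM in females and 20.6 CPM in males, and to Msmo1, a sterol oxidase, in small intestine, at 48.5 CPM in females and 74.0 CPM in males (log2 -0.61 ± 0.14, adjusted p = 0.336).

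Genes next to the pathway did not pass the threshold either. Of lists for SREBP processing and SREBP1 (3 genes), fatty acid synthesis (16), sterol efflux and LXR (8), cholesterol uptake, transport and esterification (11), sterol hydroxylation (7) and the isoprenoid branch (8), 0 genes were called in any tissue by edgeR. Their medians lay between -0.17, for fatty acid synthesis in small intestine, and 0.37, for the 3 tested genes of sterol hydroxylation in brain. In brain, fatty acid synthesis, which shares SREBP control, had 11 of 15 positive estimates with a median of 0.07.

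Some members could not be read reliably. Fdps, which makes farnesyl diphosphate, averaged 0.333 reads per brain library, 2.73 per liver library and 0.0714 per intestine library and was never tested, while its transcripts' 3′ ends matched 6 other genes, 5 of them pseudogenes, at 95% identity or more over at least 100 bases. Idi1 matched 2 pseudogenes and was untested in brain and small intestine, and Ggps1 matched 1. Acat2, Cyp51, Fdft1, Lbr, Lss and Scap share 3′ sequence with 1 or 2 other genes, so their counts are uncertain if reads were dropped or split there. The other 17 members had no such match.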

How the data were processed

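Libraries were made with 3′ TagSeq, which reads the end of each transcript, and sequenced as single-end 100-base reads, per the labels' protocols. The deposited values are raw read counts per gene, 1 file per library, made by the authors with STAR 2.7.10b and HTSeq 0.2.0 on GRCm39, per the submitters' processing notes, which also name FastQC 0.12.0, R 4.2.2 and DESeq2 1.12.3. Whether duplicate reads were removed by molecular identifier is not stated, so errors rest on reads. Multi-mapped reads (23.8% to 34.8% of records) were not assigned to genes.

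Symbols were matched by gene identifier to a GRCm38 annotation (52083 of 55416 genes). Summary entries and 92 spike-ins were left out. Within each tissue, edgeR 4.0.16 (R 4.3.3) fitted TMM-scaled counts with sex as a covariate on genes that passed its expression filter (at least 10 counts in enough libraries and 15 in all), and p-values were adjusted (Benjamini-Hochberg) over all genes tested, with 0.05 as the threshold; tests are two-sided. Tissue contrasts came from 1 fit of 44 libraries. CPM use TMM-scaled totals. The share of another tissue in a library is the median, over genes of at least 100 CPM in the source tissue that are nearly absent from the target, of the library's level over the source's level.

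The animal numbers pair the tissues of an animal, per the labels; when group means were removed, tissues of 1 animal correlated at a median r of 0.11 (liver and brain), 0.21 (small intestine and liver) and 0.11 (small intestine and brain) over 7340 genes. No libraries of a group were alike within sampling noise (lowest chi-square per gene 1.47). DESeq2 1.42.0, RLE scaling, no filter, runs, sexes, shares and leave-one-out fits were alternatives. Promoter windows are from RefSeq on GRCm38.p6; 3′ ends (300 bases) were compared with blastn 2.17.0. The fits were tested on simulated data. Named genes were all members, with values by library for those called, or the 3 of smallest p, and for Hmgcs1, Sqle, Insig1, Srebf2 and Npc1l1. The members and lists were chosen with earlier results of these data known.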

Additional observations from a re-analysis of the deposited data

Results flagged for a closer look

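Single libraries stood far from the rest of their group for 8 of the 148 combinations of member (or the members' mean), tissue and treatment examined, where chance alone marks about 1 in 20. In small intestine these were Mn50 library 2600 for Ebp (133.8 CPM, the lowest of 7), Mn50 2603 for Lbr (41.3 CPM, the lowest), Mn50 2578 for Msmo1 (76.4 CPM, the highest), vehicle 2573 for Fdft1 (43.2 CPM, the highest) and vehicle 2627 for Nsdhl (16.6 CPM, the lowest). In liver they were Mn50 2601 for Stard4 (273.7 CPM, the highest of 8) and vehicle 2572 for Acat2 (197.9 CPM, the highest of 7). In brain it was vehicle 2630 for Scap (66.0 CPM, the lowest of 7).

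The change with Mn50 was tested for a difference between tissues. Liver minus brain was called for Hmgcs1 (-0.90 on the log2 scale), Idi1 (-1.497), Acat2 (-0.48) and Npc1l1 (-4.98). Small intestine minus brain was called for Npc1l1 (-3.86). Idi1 and Npc1l1 had too few reads in brain to be tested there alone. Idi1 passed the filter through liver and Npc1l1 through small intestine. Npc1l1 in brain was 13.0 CPM at most, where the shares of other tissues predict 12.3 CPM. Leaving out 1 animal at a time kept the call for Idi1 in 7 of 15 fits and for Acat2 in 3. The Hmgcs1 value keeps the carried-over reads of Mn50 brains. In brain the change with Mn50 differed between animals 2600 to 2630 and animals 2572 to 2578 for Insig1 (-0.63), Acat2 (-0.49) and Cyp51 (-0.44).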

How the results depend on the processing

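In brain the count of called members was 1 with TMM and the filter, 2 with DESeq2, 3 without the filter on low counts and 2 with run as a covariate. It was 0 and 3 within animals 2572 to 2578 and 2600 to 2630, 0 in females and 2 in males. It was 0 with predicted reads subtracted and with shares as covariates. Over all genes, in the same order, 74, 119, 542 and 89 were called, then 198 and 1607, then 0 and 329, then 5 and 0. These were of 12552 to 13190 genes tested, or 26791 without the filter. Without libraries over 1% of another tissue, only 1 Mn50 brain is left, assumed to vary like the vehicle brains, and Hmgcs1 (-0.093) and Sqle (-0.012) changed sign. In males Srebf2 changed sign (-0.030). In liver the count of 1 became 2 without the filter, 5 within animals 2572 to 2578, and 0 within animals 2600 to 2630. It became 0 without the sex covariate, in females, in males, and without livers over 1.5% of another tissue. Over all genes, 123 of 10536 were called in the main fit, 198 of 10522 within animals 2572 to 2578 and 4 of 10733 within animals 2600 to 2630. Calls were 19 of 10536 without the sex covariate, 7 of 10628 in females, 39 of 10664 in males and 51 of 10483 without those livers. The limit of 1.5% was chosen after seeing the data, because with a limit of 1% no vehicle liver is left and that planned fit could not be made. Within animals 2600 to 2630 the liver values of Sqle (0.050), Insig1 (0.10) and Srebf2 (0.013) changed sign, and in females those of Insig1 (0.042) and Srebf2 (0.16). In small intestine the count of 0 became 1, Cyp51, without the filter; Npc1l1 was -0.019 within animals 2572 to 2578 and Sqle 0.18 in females. Within animals 2600 to 2630 the median of the members became 0.049 in brain, 0.046 in liver and -0.0072 in small intestine, and in females it became 0.030 in small intestine. Without the filter, small intestine minus brain called 2 members, the sex by treatment term in liver 1, and the vehicle sex difference 5 in liver and 2 in small intestine. The run by treatment term called 1 in brain against 3 with the filter. In liver the run by treatment term called 4 and the vehicle run difference 14. Shares over all genes for these unfiltered contrasts are not given here. For Mn50 over vehicle, calls over all genes also rose without the filter. They went from 0.575% to 2.02% in brain, 1.17% to 2.2% in liver and 0.459% to 2.07% in small intestine. The cause of these shifts was not tested.

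Leaving out each animal in turn gave 0 to 3 called members in brain, 0 to 1 in liver and 0 in small intestine, with medians of 0.17 to 0.24, -0.23 to -0.11 and -0.12 to -0.049. Liver minus brain called 2 to 6 members, small intestine minus brain 0 to 2, the vehicle sex difference 0 to 2 in liver and in small intestine, the run by treatment term in brain 0 to 4, and the vehicle run difference 0 to 6 in liver and 0 to 3 in small intestine. Srebf2 ranged from -0.0055 to 0.054 in brain and from -0.17 to 0.0040 in liver. With animal as a replicate block, liver minus brain called 5 members against 4, small intestine minus brain 1, and small intestine minus liver 0; the block changed no other call of these contrasts. In brain Idi1, Fdps and Npc1l1 had too few reads to test.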
